A study of Homo sapiens with 28 samples.

Results

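The transcripts of 10 secreted or membrane-bound angiogenic ligands were followed through both prostate cancer cell lines of the study: VEGFA, VEGFB, VEGFC, PGF, ANGPTL4, ADM, EDN1, EFNA1, PDGFA and PDGFB. They were chosen by gene symbol, with earlier results of these data known, and all 10 were among the 19662 gene symbols of both expression tables. The study asked how the transcription factor ONECUT2 bears on hypoxia signalling in prostate cancer. PC3 cells, a human prostate cancer line without androgen receptor activity, received a control siRNA (siCtrl) or an siRNA against ONECUT2 (siOC2), and LNCaP cells, an androgen-responsive human prostate cancer line, carried an empty vector or a Flag-tagged ONECUT2 vector (Flag-OC2). Each of these was kept in normoxia or in a chamber at 0.2% oxygen, which made 4 groups per line with 2 RNA-Seq libraries each, 16 in all. In the siOC2 groups replicate 1 received siRNA1 and replicate 2 received siRNA2, so their spread includes any difference between the siRNAs. No label states that the libraries of a group were separate cultures, so p-values measure the spread between libraries.

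Angiogenic ligands are made by hypoxic or growing tissue and act on the vessel wall. The VEGF family signals through receptor tyrosine kinases of endothelial cells, adrenomedullin and endothelin act through G-protein-coupled receptors, ephrins bind Eph receptors on neighbouring cells, and PDGF chains recruit pericytes and fibroblasts. Several of these genes, VEGFA, ANGPTL4 and ADM among them, are textbook targets of the hypoxia-inducible factors (HIFs), which accumulate when oxygen is low.

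Levels are RPKM, reads scaled to transcript length and library size, as the authors computed them. From the steps between low RPKM, 1 read of a transcript of 2000 bases was worth about 0.0109 to 0.0357 RPKM in PC3 libraries and 0.00826 to 0.0151 RPKM in LNCaP libraries. The 3 shallowest were replicate 1 of siOC2 in hypoxia (0.0357 RPKM a read), replicate 2 of siCtrl in hypoxia (0.0325) and replicate 1 of siCtrl in normoxia (0.0297), and low values are least precise there. ONECUT2 itself was listed in PC3 cells at 1.77 and 1.16 RPKM with siCtrl and 0.276 and 0.204 RPKM with siOC2 in normoxia, and at 0.648 and 0.550 against 0.125 and 0.214 RPKM in hypoxia, so the groups did not overlap at either oxygen level. In hypoxia, where all its values were under 1 RPKM, its lower level with siOC2 was not called by the rule given below. In LNCaP cells it was between 2.89 and 11.5 RPKM with the empty vector and blank in all 4 Flag-OC2 libraries, so its overexpression was not checked here. The LNCaP marker KLK3 reached 3997 RPKM in LNCaP cells and was listed at 0 in all PC3 libraries. The summed level of 5 PC3 markers was 469 to 1370 RPKM in PC3 and 24.5 to 59.1 RPKM in LNCaP cells. Summed levels of 5 measured endothelial markers were at most 3.67 RPKM and those of 4 leukocyte markers at most 1.24 RPKM in any library. In these bulk samples fewer cells that make a ligand and less RNA per cell cannot be told apart.

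Genes that reached 1 RPKM in 2 or more of a line's 8 libraries entered 1 limma fit of the 4 groups, on the scale of log2(RPKM + 0.1). Fold changes below are on that scale. The 4 groups of a line share 1 estimate of the spread per gene. In PC3 cells a difference between the siRNAs therefore also enters the intervals and p-values of the siCtrl response. Called genes had more than a 2-fold change and an unadjusted p under 0.05, and a Benjamini-Hochberg adjusted p over all genes tested stands beside each call. Of the 10 ligands, 9 were tested among 12214 genes in PC3 cells, all except PGF, and 5 among 12283 genes in LNCaP cells, namely VEGFA, VEGFB, EFNA1, PDGFA and PDGFB. An exact permutation test of 2 libraries against 2 cannot give a two-sided p below 0.33.

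In PC3 cells with siCtrl, 4 of the 9 tested ligands rose in hypoxia and none fell, led by ANGPTL4 and ADM. Over all genes, 2.23% rose and 1.63% fell. The median log2 fold change was 0.93 over the 9 ligands and -0.07 over all genes tested. ANGPTL4 encodes angiopoietin-like 4, an inhibitor of lipoprotein lipase that also acts on endothelial cells, and lies at chr19:8428173-8439254 (GRCh37, plus strand). Its level was 3.22 and 1.87 RPKM in the normoxic siCtrl libraries and 202 and 192 RPKM in the hypoxic ones. The lowest hypoxic value was thus far above both normoxic ones, and the log2 fold change was 6.27 ± 0.39 (standard error of the fit, SE), 77.0-fold, with a limma adjusted p of 0.000998. This was the second highest of the 12214 fold changes.

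ADM encodes adrenomedullin, a vasodilator peptide that also promotes endothelial growth, and lies at chr11:10326620-10328944 (GRCh37, plus strand). With siCtrl it had 2.36 and 2.11 RPKM in normoxia and 50.1 and 47.1 RPKM in hypoxia. Replicates lay close together at both oxygen levels, and the log2 fold change was 4.38 ± 0.41 (SE), 20.9-fold, with a limma adjusted p of 0.00531.

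ANGPTL4 and ADM were the only ligands called higher in hypoxia with both siCtrl and siOC2. The sequence before their transcription start is shown for that reason, beside that of EDN1, which moved the other way with ONECUT2. Each line gives the 250 bases before a RefSeq start of GRCh38.p14 on the plus strand, 5′ to 3′. Capitals mark a match to the core that HIFs bind, ACGTG or GCGTG on either strand, so that CACGT is a match read on the other strand.
ANGPTL4 (chr19:8363905-8364154): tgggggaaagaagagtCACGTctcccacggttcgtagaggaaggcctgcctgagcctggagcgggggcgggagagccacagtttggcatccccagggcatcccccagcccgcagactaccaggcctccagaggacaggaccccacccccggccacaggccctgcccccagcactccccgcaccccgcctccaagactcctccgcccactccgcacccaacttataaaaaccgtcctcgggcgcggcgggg
ADM (chr11:10304823-10305072): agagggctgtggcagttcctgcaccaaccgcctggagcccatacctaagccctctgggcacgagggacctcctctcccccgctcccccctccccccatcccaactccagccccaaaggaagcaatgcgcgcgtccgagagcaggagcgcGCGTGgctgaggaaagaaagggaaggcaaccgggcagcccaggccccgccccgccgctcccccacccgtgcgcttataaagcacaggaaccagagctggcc
EDN1 (chr6:12290111-12290360): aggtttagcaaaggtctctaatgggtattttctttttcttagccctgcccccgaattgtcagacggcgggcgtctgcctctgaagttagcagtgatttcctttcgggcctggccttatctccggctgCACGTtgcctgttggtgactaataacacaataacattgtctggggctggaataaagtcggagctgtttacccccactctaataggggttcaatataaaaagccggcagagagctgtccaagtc
RefSeq promoter windows were matched for 8 of the 10 ligands, with 14 starts between them, and entries for VEGFA and PDGFB were not matched. A HIF core was found before 11 of these 14 starts, against 43.2% of all 35116 windows of the same length, where windows of a gene with several starts can overlap. Windows were not matched for base content. The starts with a core include those of VEGFB, VEGFC and EFNA1, not called in siCtrl hypoxia, and 1 of PGF, not tested. The ANGPTL4 match spans bases -234 to -230 from the start, the ADM match bases -101 to -97, and the EDN1 match bases -123 to -119. EDN1 has 3 RefSeq starts, and the sequence shown is that before the most downstream one, chosen after the matches were seen. The window of the first start holds 3 HIF cores, which begin at bases -240, -93 and -47, and that of the second holds 0. The ONECUT cores ATCGAT and ATTGAT, on either strand, were found before 0 of the 14 starts and in 6.19% of all windows. A match to so short a core is a description of letters and not a binding site, and no match says only that these letters are not in the window.

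**Figure D1:**
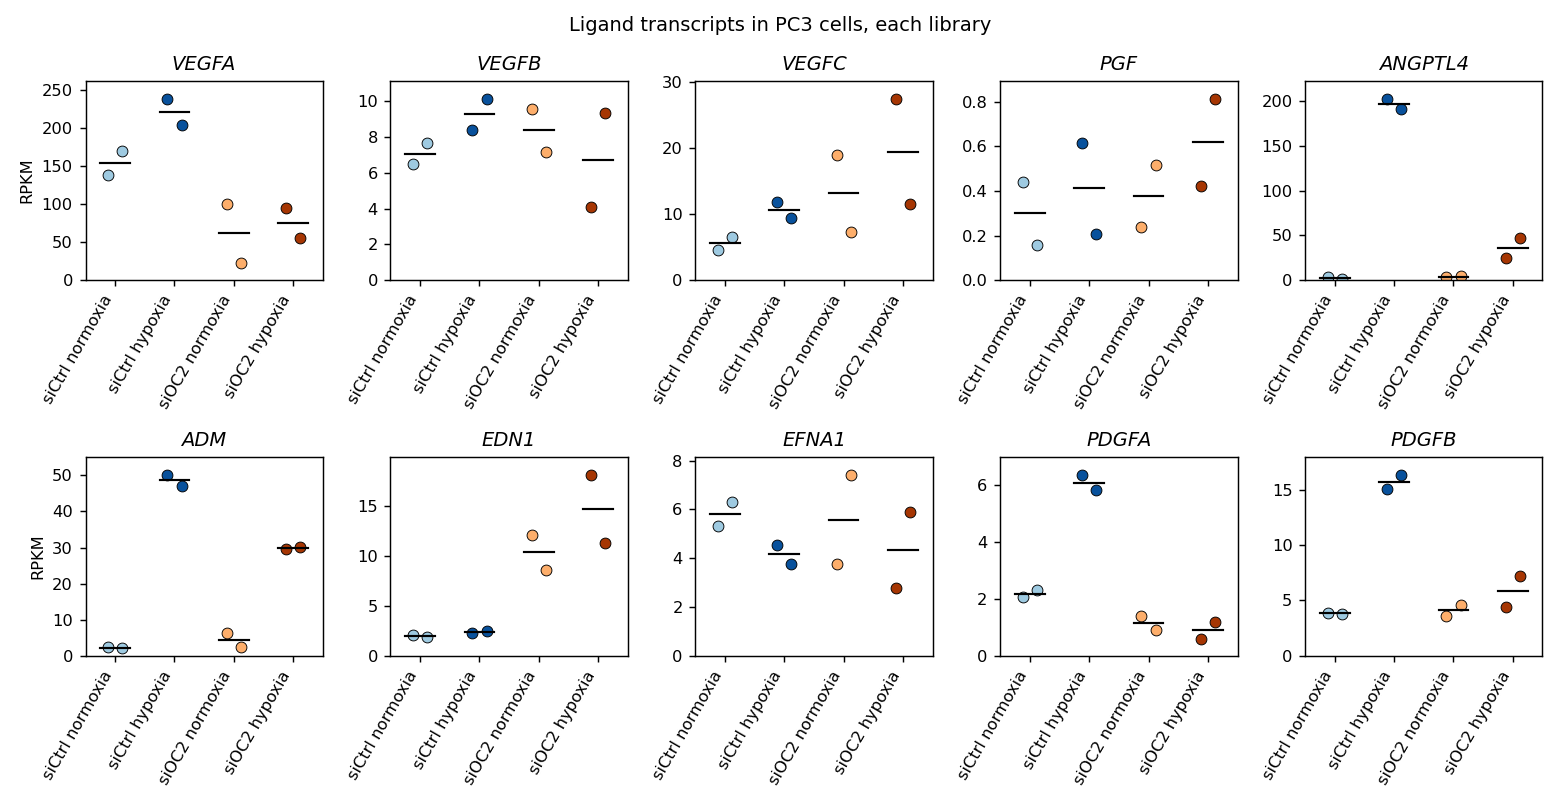
RPKM (y axis, linear, from 0, a scale per gene) of the 10 ligands in each PC3 library, grouped by siRNA and oxygen (x axis). Each point is a library, with replicate 1 on the left, and the bar is the mean of 2. ANGPTL4 and ADM are high in both hypoxic siCtrl libraries, PDGFA and PDGFB are highest there, and EDN1 is higher in all 4 siOC2 libraries than in any siCtrl library.

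Both PDGF chains, growth factors for pericytes and fibroblasts, also rose in hypoxia with siCtrl. PDGFB, at chr22:39619364-39640987 (GRCh37, minus strand), had 3.88 and 3.78 RPKM in normoxia and 15.1 and 16.3 RPKM in hypoxia. These values did not overlap, with a log2 fold change of 2.01 ± 0.32 (SE) and a limma adjusted p of 0.0602. PDGFA, at chr7:536895-559933 (GRCh37, minus strand), went from 2.07 and 2.32 RPKM to 6.37 and 5.82 RPKM. Its log2 fold change was 1.44 ± 0.43 (SE), with a limma adjusted p of 0.416. PDGFA was no longer called without replicate 1 of siCtrl in hypoxia (1.37) or without replicate 1 of siCtrl in normoxia (1.35). Nor was it called where the filter was raised to 5 RPKM.

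The 3 VEGF genes did not pass the test in PC3 cells with siCtrl. VEGFA, the main endothelial growth factor, lies at chr6:43737921-43754224 (GRCh37, plus strand). It already had 138 and 170 RPKM in normoxia and reached 238.5 and 205 RPKM in hypoxia. The groups did not overlap, but the log2 fold change was only 0.53 with a 95% interval from -0.83 to 1.89, and the limma adjusted p was 0.928. The shared spread behind this interval takes in the siOC2 libraries, which were at 100 RPKM (siRNA1) and 23.3 RPKM (siRNA2) in normoxia. VEGFC, a lymphatic growth factor at chr4:177604689-177714076 (GRCh37, minus strand), had 4.63 and 6.54 RPKM in normoxia and 11.8 and 9.46 RPKM in hypoxia. Its hypoxic values were both above its normoxic ones, with a log2 fold change of 0.93, a 95% interval from -0.30 to 2.16 and a limma adjusted p of 0.791. Here too the spread takes in the siOC2 libraries, at 19.0 RPKM (siRNA1) and 7.31 RPKM (siRNA2) in normoxia. VEGFB, a VEGFR1 ligand at chr11:64002056-64006736 (GRCh37, plus strand), had a log2 fold change of 0.38 with a limma adjusted p of 0.918.

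EDN1 and EFNA1 likewise gave no call with siCtrl. EDN1 encodes the precursor of endothelin-1, a vasoconstrictor peptide, and lies at chr6:12290594-12297427 (GRCh37, plus strand). It had 2.05 and 1.87 RPKM in normoxia and 2.25 and 2.52 RPKM in hypoxia, with a limma adjusted p of 0.933. EFNA1, the ephrin-A1 ligand of EphA2, lies at chr1:155100352-155107375 (GRCh37, plus strand). It was the ligand with the lowest log2 fold change, -0.47 with a 95% interval from -1.50 to 0.56 and a limma adjusted p of 0.903. PGF, placental growth factor, at chr14:75408537-75422329 (GRCh37, minus strand), stayed between 0.157 and 0.812 RPKM in all 8 PC3 libraries, about 5 to 44 reads each, and was not tested. Genes on the opposite strand overlap VEGFA, VEGFC and PDGFB. The library kit keeps the strand, but whether the counting used it is not given in the sources used here.

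The order of the ligands changed between oxygen levels in siCtrl cells. Mean RPKM in normoxia was 154 for VEGFA, 7.08 for VEGFB, 5.81 for EFNA1, 5.59 for VEGFC, 3.83 for PDGFB, 2.55 for ANGPTL4, 2.23 for ADM, 2.19 for PDGFA, 1.96 for EDN1 and 0.299 for PGF. Libraries overlapped between EFNA1 and VEGFC, between ANGPTL4 and ADM and between ADM and PDGFA, and not between the other neighbours in this order. In hypoxia ANGPTL4 had a mean of 197 RPKM, beside 222 RPKM for VEGFA and 48.6 RPKM for ADM, and the lowest VEGFA library (205 RPKM) was only just above the highest ANGPTL4 library (202 RPKM).

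With siOC2, 2 of the 9 ligands, ANGPTL4 and ADM, rose in hypoxia and none fell, against 1.11% of all genes that rose and 2.35% that fell. The ligands had a median log2 fold change of 0.48 and all genes one of -0.22. ANGPTL4 went from 3.21 to 25.2 RPKM with siRNA1 and from 4.58 to 46.9 RPKM with siRNA2. Both siRNAs gave the same direction, 7.63-fold and 10.1-fold. Across both the log2 fold change was 3.13 ± 0.39 (SE) with a limma adjusted p of 0.0909. ADM went from 6.45 to 29.5 RPKM with siRNA1 and from 2.56 to 30.2 RPKM with siRNA2, with a log2 fold change of 2.84 ± 0.41 (SE) and a limma adjusted p of 0.113. The hypoxic ADM values of the siRNAs were nearly equal, and the normoxic ones were not.

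The other ligands did not pass the test with siOC2, and some depended on the siRNA. VEGFA was flat with siRNA1, at 100 RPKM in normoxia and 94.8 RPKM in hypoxia, and went from 23.3 to 55.7 RPKM with siRNA2. The log2 fold change over both siRNAs was 0.59 with a 95% interval from -0.77 to 1.95, and the limma adjusted p was 0.817. Without replicate 2 of siOC2 in normoxia the direction turned (-0.46), and without replicate 1 VEGFA was called (1.64). PDGFA was 1.41 and 0.903 RPKM in normoxia and 0.611 and 1.21 RPKM in hypoxia, so that its libraries overlapped, with a limma adjusted p of 0.852. PDGFB had 3.63 and 4.62 RPKM in normoxia and 4.43 and 7.19 RPKM in hypoxia, which also overlapped, with a limma adjusted p of 0.755. Within each siRNA, however, its hypoxic value was the higher one, 1.22-fold with siRNA1 and 1.55-fold with siRNA2. VEGFB went from 9.55 to 4.12 RPKM with siRNA1 and from 7.19 to 9.34 RPKM with siRNA2, opposite directions.

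**Figure D2:**
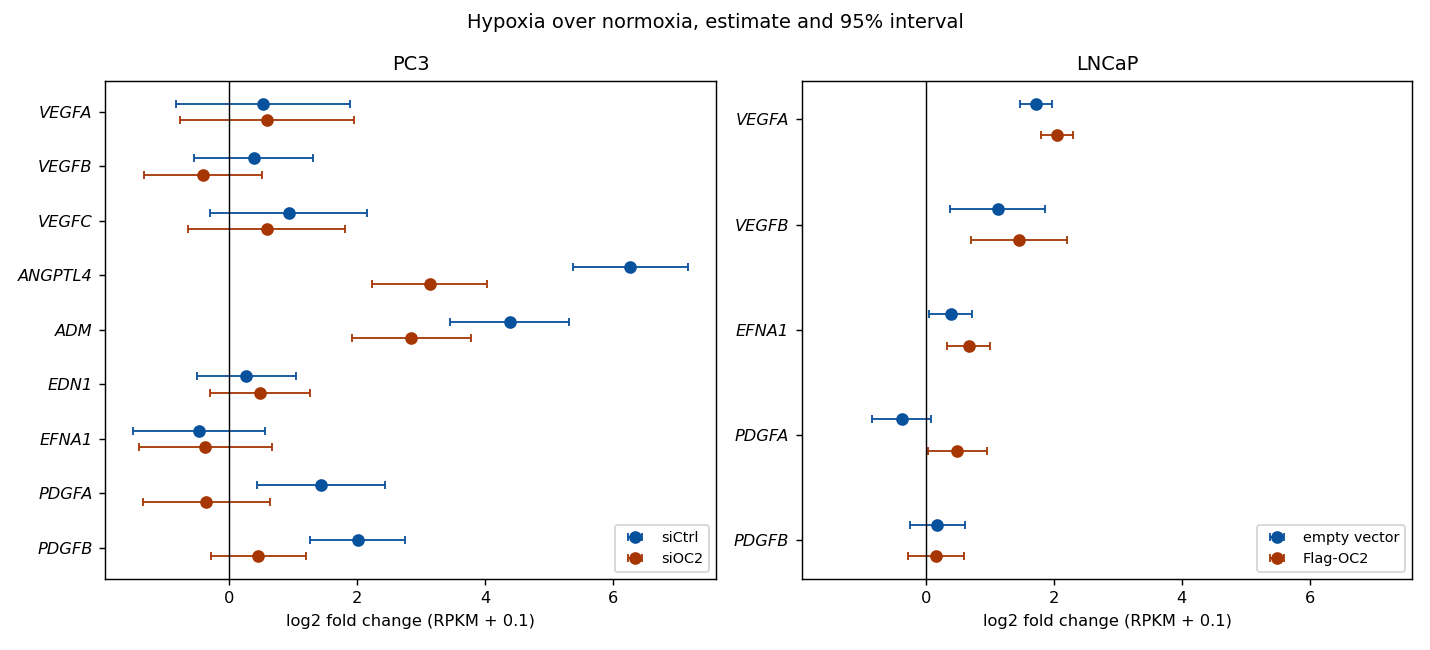
Hypoxia over normoxia for each tested ligand (y axis), as log2 fold change of RPKM + 0.1 (x axis), in PC3 cells (left) and LNCaP cells (right). Points are limma estimates from 2 libraries a group and bars are 95% intervals. ANGPTL4 lies at 6.27 with siCtrl and 3.13 with siOC2, and VEGFA lies near 0.5 in PC3 cells with either siRNA treatment and at 1.72 and 2.05 in LNCaP cells.

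The difference between these responses was tested as the interaction in the same fit, and it uses the same libraries as both responses. At an unadjusted p under 0.05, 4 of the 9 ligands, ANGPTL4, PDGFA, PDGFB and ADM, had a response over 2-fold larger with siCtrl than with siOC2, and none a smaller one. Among all genes these shares were 0.696% and 0.246%, 85 and 30 of 12214 genes. The ligands were chosen with earlier results of these data known. The study had also named ANGPTL4 and ADM as upregulated by ONECUT2 in hypoxia from its PC3 RNA-Seq. By RT-qPCR it reported a smaller hypoxic induction of both genes after ONECUT2 knockdown. The shares are therefore a description and not a test of the ligands as a set. These counts over all genes moved with single libraries, to 1421 larger and 108 smaller without replicate 2 of siOC2 in hypoxia, 101 and 155 without replicate 1 of siOC2 in hypoxia, 233 and 70 without replicate 2 of siOC2 in normoxia, and 33 and 14 without replicate 1 of siCtrl in normoxia. Without either hypoxic siCtrl library they were 42 and 47 (replicate 1) and 41 and 11 (replicate 2). The difference in log2 fold change was 3.14 ± 0.56 (SE, unadjusted limma p of 0.000431) for ANGPTL4, 1.79 ± 0.61 (SE) for PDGFA, 1.55 ± 0.46 (SE) for PDGFB and 1.54 ± 0.57 (SE) for ADM. The limma adjusted p was 1 for each of these, so no single difference passed the correction over 12214 genes. The median difference was 0.79 over the ligands and 0.17 over all genes. Scaling each library to its upper quartile moved the median of all genes to 0.0058 and that of the ligands to 0.63, left the same 4 ligands called, and turned the calls over all genes from 85 larger and 30 smaller to 60 and 61. In the siOC2 response the scaling moved the median of all genes from -0.22 to -0.09 and the calls from 135 higher and 287 lower to 166 and 197.

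The ANGPTL4 and PDGFB differences kept their calls without any 1 library. That of ADM was lost without either hypoxic siCtrl library, without either normoxic siCtrl library, or without replicate 1 of siOC2 in normoxia, with values from 0.89 to 1.62. That of PDGFA was lost without either hypoxic siCtrl library, without replicate 1 of siCtrl in normoxia, or without replicate 1 of siOC2 in normoxia, with values from 1.49 to 1.85. It was also lost with the filter at 5 RPKM. For VEGFA the difference was -0.06 with a 95% interval from -1.99 to 1.87, which leaves a difference of either sign possible at this spread.

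Between siCtrl and siOC2 in normoxia, VEGFA was higher with siCtrl and EDN1 was lower, while the other 7 tested ligands gave no call. Of all genes, 1.59% were higher with siCtrl and 3.62% were lower. VEGFA had 138 and 170 RPKM with siCtrl, 100 RPKM with siRNA1 and 23.3 RPKM with siRNA2. All siCtrl values were higher, and siRNA2 gave the lowest value. The log2 fold change was 1.66 ± 0.59 (SE) with a limma adjusted p of 0.438, and the call was lost without replicate 2 of siOC2 (0.61) or without replicate 2 of siCtrl (1.51). EDN1 had 2.05 and 1.87 RPKM with siCtrl against 12.1 and 8.56 RPKM with siOC2. Both siRNAs gave more EDN1, 5.0-fold on average, with a log2 fold change of -2.32 ± 0.34 (SE) for siCtrl over siOC2 and a limma adjusted p of 0.103.

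ANGPTL4 and ADM were not higher with siCtrl in normoxia. ANGPTL4 had 3.22 and 1.87 RPKM with siCtrl and 3.21 and 4.58 RPKM with siOC2, which overlapped, and ADM had 2.36 and 2.11 RPKM against 6.45 and 2.56 RPKM. Their log2 fold changes were -0.62 and -0.84, with limma adjusted p of 0.692 and 0.595. ADM was lower with siCtrl by the same rule without replicate 2 of siOC2 in normoxia (-1.49). VEGFC gave 4.63 and 6.54 RPKM with siCtrl, 19.0 RPKM with siRNA1 and 7.31 RPKM with siRNA2. It had a log2 fold change of -1.09 and a limma adjusted p of 0.606, and without replicate 2 of siOC2 in normoxia it was called lower with siCtrl (-1.77).

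In hypoxia 4 ligands were higher in siCtrl than in siOC2 cells (PDGFA, ANGPTL4, VEGFA and PDGFB) and EDN1 was lower. Over all genes 3.95% were higher and 3.55% lower, and the ligands' median of 0.70 stood beside 0.03. ANGPTL4 was at 202 and 192 RPKM with siCtrl against 25.2 and 46.9 RPKM with siOC2, a log2 fold change of 2.52 ± 0.39 (SE) with a limma adjusted p of 0.0574. PDGFA was at 6.37 and 5.82 RPKM against 0.611 and 1.21 RPKM, a log2 fold change of 2.68 ± 0.43 (SE) with a limma adjusted p of 0.0581. In each of these ligands both siRNAs lay well below both siCtrl libraries.

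PDGFB was at 15.1 and 16.3 RPKM with siCtrl and 4.43 and 7.19 RPKM with siOC2 in hypoxia, with a log2 fold change of 1.46 ± 0.32 (SE) and a limma adjusted p of 0.128. VEGFA had 238.5 and 205 RPKM against 94.8 and 55.7 RPKM, a log2 fold change of 1.60 ± 0.59 (SE) with a limma adjusted p of 0.321. Its call was lost without either siCtrl library (1.49 and 1.71), without replicate 2 of siOC2 (1.22), or with no filter on low values. ADM had 50.1 and 47.1 RPKM against 29.5 and 30.2 RPKM, which did not overlap. Its log2 fold change of 0.70, with a 95% interval from -0.23 to 1.63 and a limma adjusted p of 0.536, gave no call. The study, in contrast, counted ADM among the genes upregulated by ONECUT2 in hypoxia.

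EDN1 moved against the other called ligands in hypoxia as well. It had 2.25 and 2.52 RPKM with siCtrl and 18.1 and 11.3 RPKM with siOC2, 5.80-fold more with siOC2, with a log2 fold change of -2.54 ± 0.34 (SE) and a limma adjusted p of 0.0502. VEGFC was at 11.8 and 9.46 RPKM with siCtrl and 27.5 and 11.5 RPKM with siOC2, and was called lower with siCtrl only without replicate 2 of siOC2 in hypoxia (-1.37). VEGFB was called higher with siCtrl without that same library (1.15), and its direction turned without replicate 1 (-0.02). EFNA1 was within its spread at both oxygen levels, with log2 fold changes of 0.13 and 0.03. The 5 PC3 markers moved with the siRNA too: their sum was 1217 to 1370 RPKM with siCtrl and 469 to 833 RPKM with siOC2 in hypoxia, and 766 to 914 against 536 to 550 RPKM in normoxia. The part of this in the ligand results was not tested.

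**Figure D3:**
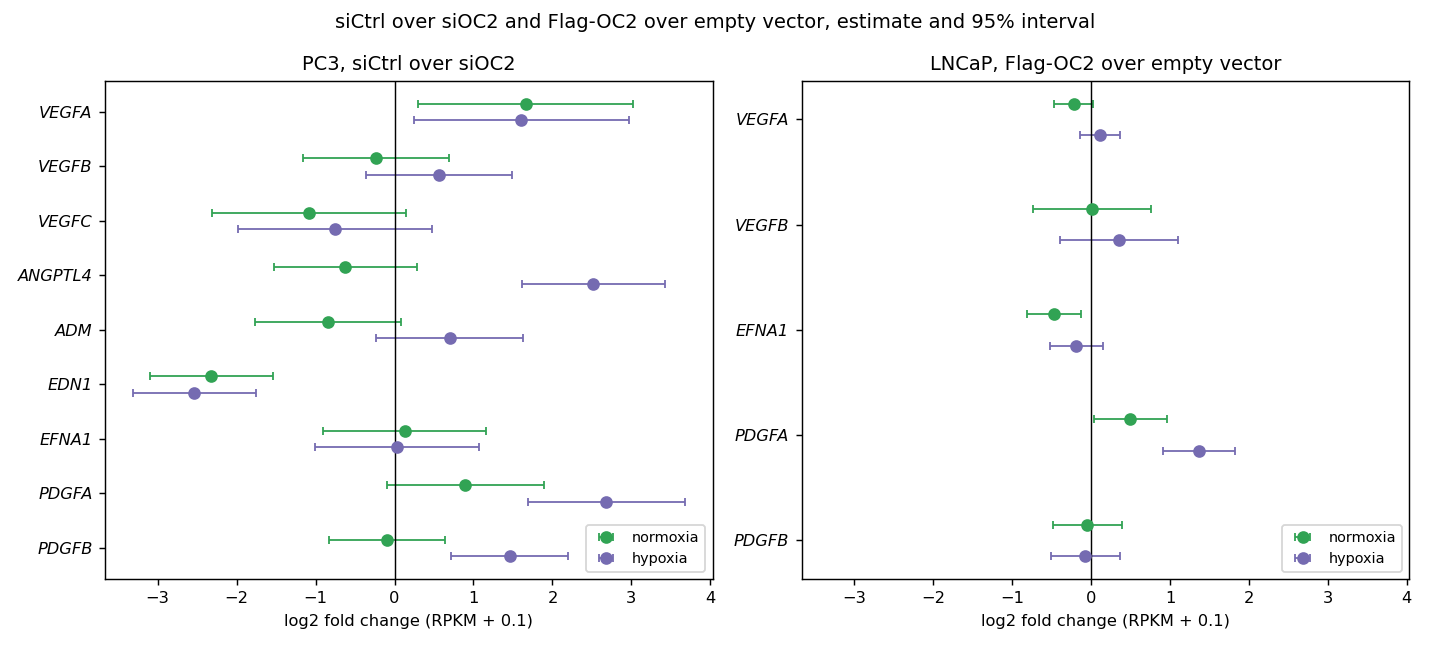
Effect of the ONECUT2 manipulation on each tested ligand (y axis), as log2 fold change of RPKM + 0.1 (x axis), for siCtrl over siOC2 in PC3 cells (left) and Flag-OC2 over empty vector in LNCaP cells (right). Points are limma estimates from 2 libraries a group and bars are 95% intervals. EDN1 lies at -2.32 and -2.54 in PC3 cells, ANGPTL4 is at -0.62 in normoxia and 2.52 in hypoxia, and PDGFA in hypoxia is positive in both lines (2.68 and 1.37).

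In LNCaP cells 5 of the ligands passed the filter, and all 5 were also tested in PC3 cells. VEGFA led with a mean of 123 RPKM in empty vector libraries in normoxia, followed by EFNA1 at 27.7 RPKM, PDGFB at 3.75 RPKM, PDGFA at 2.88 RPKM and VEGFB at 2.20 RPKM. Among neighbours in this order, only the libraries of PDGFA and VEGFB overlapped. ANGPTL4 was between 0.308 and 1.03 RPKM in all 8 LNCaP libraries, ADM between 0.0982 and 1.03 RPKM and EDN1 between 0.0329 and 0.205 RPKM. VEGFC was listed at 0 in 7 libraries and at 0.00975 RPKM, about 1 read, in the other. The tables of both lines were made separately, so these levels stand beside the PC3 levels without a test.

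**Figure D4:**
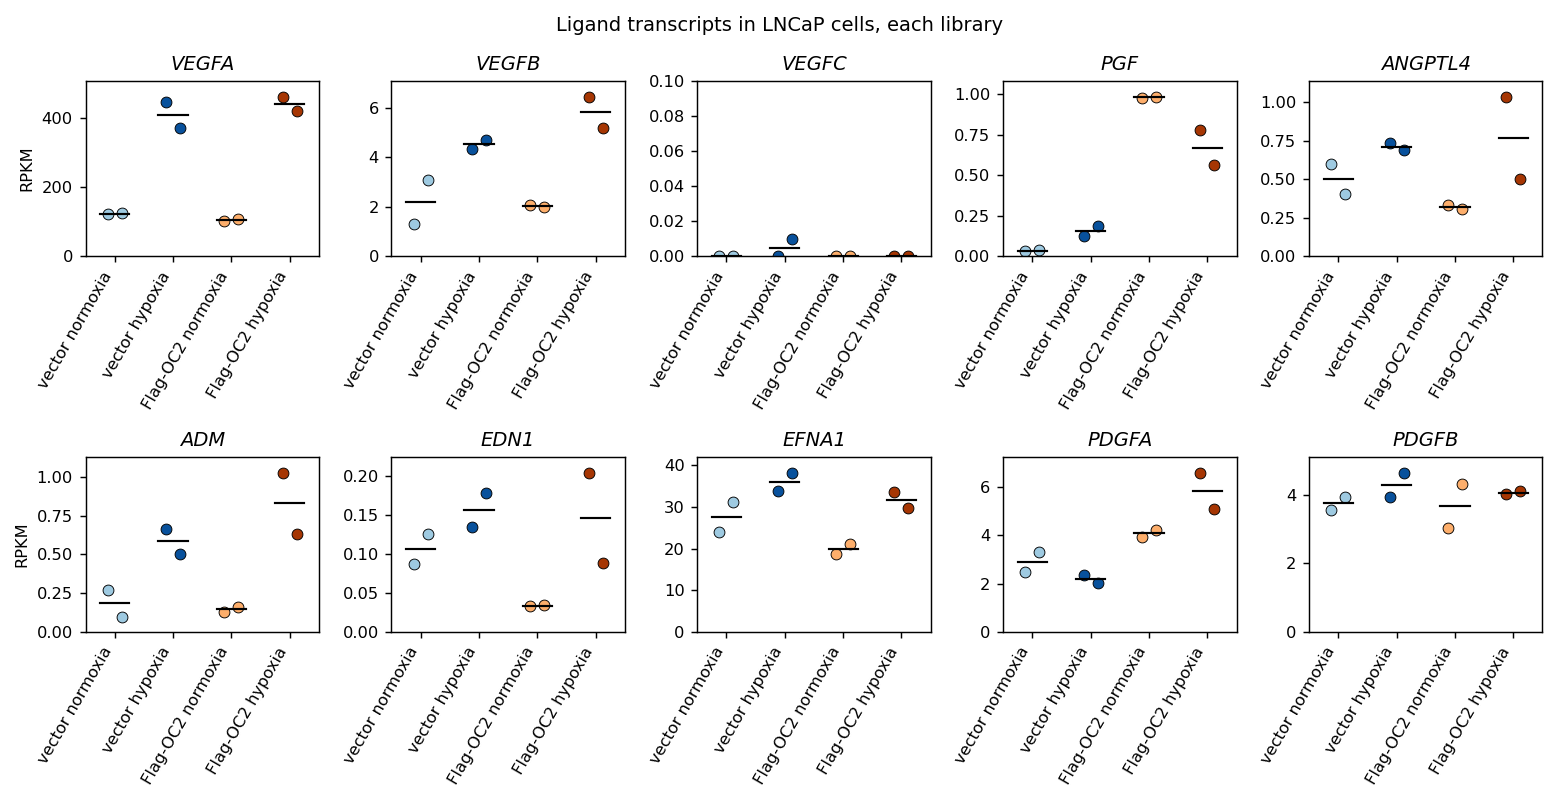
RPKM (y axis, linear, from 0, a scale per gene) of the 10 ligands in each LNCaP library, grouped by vector and oxygen (x axis). Each point is a library, with replicate 1 on the left, and the bar is the mean of 2. VEGFA is at or above 370 RPKM in all 4 hypoxic libraries and at or below 125 RPKM in all 4 normoxic ones, and PDGFA is highest with Flag-OC2 in hypoxia.

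With the empty vector, 2 of the 5 tested ligands, VEGFA and VEGFB, rose in hypoxia and none fell, where 5.6% of all genes rose and 2.34% fell. The ligands' median was 0.39 and that of all genes 0.02. VEGFA went from 122 and 125 RPKM to 445 and 370 RPKM. The hypoxic libraries were 3.29-fold higher without overlap, with a log2 fold change of 1.72 ± 0.11 (SE) and a limma adjusted p of 4.6e-05. VEGFB went from 1.32 and 3.07 RPKM to 4.34 and 4.72 RPKM, a log2 fold change of 1.12 ± 0.33 (SE) with a limma adjusted p of 0.0311. Its normoxic libraries differed from each other by more than 2-fold, and the call was lost without replicate 1 in normoxia (0.55) or with a pseudocount of 1 (0.85).

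With Flag-OC2, the same ligands, VEGFA and VEGFB, rose in hypoxia, 2 of 5, beside 5.48% of all genes that rose and 1.36% that fell. VEGFA went from 103 and 109 RPKM to 459.5 and 420 RPKM, a log2 fold change of 2.05 ± 0.11 (SE) with a limma adjusted p of 2.3e-05. VEGFB went from 2.09 and 1.99 RPKM to 6.44 and 5.21 RPKM, a log2 fold change of 1.46 ± 0.33 (SE) with a limma adjusted p of 0.0138. EFNA1 went from 18.7 and 21.0 RPKM to 33.6 and 29.7 RPKM. These did not overlap, but the log2 fold change of 0.67 (limma adjusted p of 0.0128) was under the 2-fold limit, as was that of 0.39 with the empty vector (limma adjusted p of 0.0738).

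The response of no tested ligand differed between Flag-OC2 and empty vector by this rule, 0 of 5, while 2.34% of all genes had a larger and 1.35% a smaller response with Flag-OC2. The nearest was PDGFA, with a difference of 0.87 ± 0.28 (SE), a limma unadjusted p of 0.0150 and an adjusted p of 0.198. It passed the 2-fold limit without replicate 1 of the empty vector in normoxia (1.07) or replicate 2 of Flag-OC2 in hypoxia (1.05). VEGFA had a difference of 0.34 with a 95% interval from -0.02 to 0.69, which places it under 2-fold, and VEGFB one of 0.34 with an interval from -0.72 to 1.40.

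Flag-OC2 over empty vector gave no call in normoxia among the 5 ligands, where 2.81% of all genes were higher and 0.48% lower. In hypoxia PDGFA was higher, 1 of 5, beside 3.7% of all genes higher and 0.773% lower. PDGFA had 2.46 and 3.31 RPKM with the empty vector and 3.94 and 4.22 RPKM with Flag-OC2 in normoxia. In hypoxia it had 2.36 and 2.01 RPKM against 6.59 and 5.06 RPKM. The Flag-OC2 libraries were above the empty vector libraries at both oxygen levels, with log2 fold changes of 0.50 (limma adjusted p of 0.179) and 1.37 ± 0.20 (SE, limma adjusted p of 0.00575). PDGFB, the partner chain, had values from 3.05 to 4.65 RPKM in all 8 libraries and log2 fold changes of -0.05 and -0.07. VEGFA differed little between vectors, with log2 fold changes of -0.22 in normoxia (95% interval -0.47 to 0.03) and 0.12 in hypoxia (-0.14 to 0.37).

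PGF lay under the filter in LNCaP cells but not at the same level in all groups. It had 0.0313 and 0.0369 RPKM, about 2 and 3 reads, with the empty vector in normoxia, and 0.979 and 0.983 RPKM, about 50 and 71 reads, with Flag-OC2. In hypoxia it had 0.126 and 0.189 RPKM with the empty vector and 0.780 and 0.561 RPKM with Flag-OC2. The groups did not overlap at either oxygen level. Tested with no filter on low values, the log2 fold change of PGF was 3.01 in normoxia (limma adjusted p of 0.00389) and 1.58 in hypoxia (limma adjusted p of 0.0151). ADM, also under the filter, had 0.271 and 0.0982 RPKM in normoxia and 0.664 and 0.505 RPKM in hypoxia with the empty vector, and 0.126 and 0.164 against 1.03 and 0.633 RPKM with Flag-OC2. With no filter its hypoxia response was 1.33 (limma adjusted p of 0.0573) and 1.89 (limma adjusted p of 0.0241). At about 5 to 71 reads these ADM values carry a wide counting error.

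Side by side, the ligands with a call in hypoxia were ANGPTL4, ADM, PDGFB and PDGFA in siCtrl PC3 cells and VEGFA and VEGFB in LNCaP cells. No test compared the lines, and ANGPTL4 and ADM lay under the filter in LNCaP cells, where ADM rose in both responses with no filter. The 95% interval of the VEGFA response in siCtrl PC3 cells, -0.83 to 1.89, includes the value of 1.72 in LNCaP cells with the empty vector. That interval takes in the difference between the siRNAs, so it does not show that the responses were alike. Same-numbered siCtrl libraries of PC3 cells gave VEGFA log2 fold changes of 0.79 and 0.27. PDGFA was higher in hypoxia in the groups with siCtrl or Flag-OC2 than in those with siOC2 or the empty vector, 6.10 against 0.909 RPKM and 5.82 against 2.18 RPKM as group means.

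The hypoxia treatment itself registered in each group. All 10 genes of a hypoxia reference list (ANKRD37, BNIP3, CA9, EGLN3, KDM3A, LDHA, NDRG1, P4HA1, PDK1 and SLC2A1, well-known HIF targets) rose in all 4 hypoxia comparisons, with median log2 fold changes of 1.93 with siCtrl, 1.90 with siOC2, 2.19 with the empty vector and 2.44 with Flag-OC2. With siCtrl only CA9 had a limma adjusted p under 0.05 (0.00515). With siOC2 no gene of the list did, and the lowest was 0.0599 for CA9. Of these genes 0 of 10 had a called difference in response in PC3 cells, where 0.696% of all genes had a larger and 0.246% a smaller response with siCtrl. Among them CA9, an acid-base enzyme of hypoxic cells, had a difference of 1.17 and ANKRD37 one of 0.73 (limma adjusted p of 1 for each). CA9 had a called difference in LNCaP cells (1.53, limma adjusted p of 0.272). EPAS1, which encodes HIF2A, rose in hypoxia with siCtrl (1.02, limma adjusted p of 0.611) and with the empty vector (1.40, limma adjusted p of 0.0091), while HIF1A and the TGF-beta effector SMAD3 were not called in any comparison. SMAD3 had log2 fold changes for siCtrl over siOC2 of 0.47 in normoxia and 0.97 in hypoxia, the latter just under the 2-fold limit. The study reported less SMAD3 after ONECUT2 silencing in PC3 cells, from RNA-Seq, RT-qPCR and western blot.

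Of 11 genes that process the ligands or act with them, 10 were tested in PC3 cells and 7 in LNCaP cells. In PC3 cells 2 of 10 rose and 1 fell in the siCtrl response (2.23% and 1.63% of all genes), 0 were called in the siOC2 response, and 1 had a larger response with siCtrl (0.696% of all genes). For siCtrl over siOC2, 0 were called in normoxia, and in hypoxia 2 were higher and 1 lower (3.95% and 3.55% of all genes). ECE1, the protease that makes active endothelin, had 20.0 and 21.0 RPKM in siCtrl normoxia and 86.8 and 76.8 RPKM in siCtrl hypoxia, a log2 fold change of 1.99 (limma adjusted p of 0.0285). It had 15.6 and 18.7 against 27.0 and 36.96 RPKM with siOC2, and the difference between the responses was 1.11 (limma adjusted p of 1). In hypoxia ECE1 was also higher in siCtrl than in siOC2 cells (1.37, limma adjusted p of 0.0946), opposite to its substrate gene EDN1. MME, a protease that degrades endothelin and adrenomedullin, was higher in siCtrl cells too (1.14, limma adjusted p of 0.318). PAM, which amidates adrenomedullin, rose with siCtrl (1.29, limma adjusted p of 0.17). LPL, the lipase that ANGPTL4 inhibits, fell with siCtrl in hypoxia (-1.08, limma adjusted p of 0.666) and was lower with siCtrl than with siOC2 in hypoxia (-1.39, limma adjusted p of 0.278). In LNCaP cells 0 of 7 were called in any comparison.

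Of 21 receptor genes, 12 were tested in PC3 cells and 8 in LNCaP cells. In PC3 cells EPHA3 rose in hypoxia with siCtrl (2.55, limma adjusted p of 0.543) and EPHA2, the EFNA1 receptor, exceeded its siOC2 level in hypoxic siCtrl cells (1.02, limma adjusted p of 0.15). In LNCaP cells 2 of 8 fell in hypoxia with the empty vector, RAMP1 and FLT4, beside 2.34% of all genes. RAMP1 (-1.33, limma adjusted p of 0.0332) is an accessory protein of receptors for CGRP, a peptide related to adrenomedullin. FLT4 is the VEGFC receptor VEGFR3. FLT4 had 1.83 and 2.23 RPKM in normoxia and 0.786 and 0.612 RPKM in hypoxia with the empty vector (-1.42, limma adjusted p of 0.00216). With Flag-OC2 it had 1.89 and 1.92 RPKM in normoxia and 1.89 and 2.16 RPKM in hypoxia, and the difference in response was 1.499 (limma adjusted p of 0.0882). NRP2, a co-receptor of VEGFC, had 0.0531 and 1.19 RPKM with the empty vector and 5.74 and 4.81 RPKM with Flag-OC2 in normoxia, a log2 fold change of 3.59 (limma adjusted p of 0.0652). VEGFC itself was at or near 0 in these cells. RAMP1 was lower with Flag-OC2 in normoxia (-1.45, limma adjusted p of 0.0722).

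Of 24 other angiogenic ligands, 12 were tested in each line. In PC3 cells 2 rose in hypoxia with siCtrl, EFNA3 (1.92, limma adjusted p of 0.233) and PDGFC (1.01, limma adjusted p of 0.361), beside 2.23% of all genes. With siOC2 ANGPTL2 rose (1.51, limma adjusted p of 0.719), 1 of 12 beside 1.11% of all genes. In PC3 cells 0 of 12 had a called difference in response, where 0.696% of all genes had a larger and 0.246% a smaller response with siCtrl. In LNCaP cells 6 of 12 rose with the empty vector, beside 5.6% of all genes. They were led by ANGPT2 (2.53, limma adjusted p of 4.6e-05), EFNB2 (1.66, limma adjusted p of 0.000125), EDN2 (1.45, limma adjusted p of 0.00068) and EFNA5 (1.32, limma adjusted p of 0.000616). With Flag-OC2, 3 of 12 rose, beside 5.48% of all genes. The difference in response between the vectors was called for 0 of 12. Of all genes, 2.34% had a larger and 1.35% a smaller response with Flag-OC2. ANGPT2, a Tie2 ligand of vessel remodelling, was also higher with Flag-OC2 than with the empty vector in normoxia (1.90, limma adjusted p of 0.000641) and in hypoxia (1.58, limma adjusted p of 0.00124).

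Of 14 genes listed as angiogenesis inhibitors, 11 were tested in PC3 cells and 8 in LNCaP cells. The list includes VASH2, which is known as a promoter of vessel growth rather than an inhibitor. In PC3 cells VASH2 fell in hypoxia with siCtrl (-1.46, limma adjusted p of 0.603), 1 of 11 beside 1.63% of all genes. TNFSF15 was lower with siCtrl in normoxia (-2.27, limma adjusted p of 0.324), 1 of 11 beside 3.62% of all genes. In PC3 hypoxia 3 were lower with siCtrl than with siOC2 and 0 higher, beside 3.55% and 3.95% of all genes. The lower ones were TNFSF15 (-4.06, limma adjusted p of 0.0581), ADAMTS1 (-1.16, limma adjusted p of 0.326) and SEMA3A (-1.04, limma adjusted p of 0.351). In LNCaP cells 3 of 8 rose in hypoxia with the empty vector and 2 of 8 with Flag-OC2, beside 5.6% and 5.48% of all genes. The difference in response between the vectors was called for 0 of 8, beside 2.34% of all genes larger and 1.35% smaller with Flag-OC2. THBS1, thrombospondin-1, rose with the empty vector (2.83, limma adjusted p of 5.2e-05) and with Flag-OC2 (1.88, limma adjusted p of 0.000514). In LNCaP hypoxia 3 of 8 were lower with Flag-OC2 than with the empty vector, beside 0.773% of all genes. These were THBS1 (-1.12, limma adjusted p of 0.00983), TNFSF15 (-1.12, limma adjusted p of 0.0167) and ADAMTS1 (-1.06, limma adjusted p of 0.000782). In PC3 cells THBS1 was not called and had the opposite sign, with siCtrl over siOC2 at 0.70 in normoxia and 0.94 in hypoxia. The fibroblast marker COL1A1 rose with hypoxia in LNCaP cells (1.11 and 1.22). The summed level of the 6 fibroblast and smooth muscle markers was 12.3 to 14.2 RPKM in normoxia and 19.9 to 20.8 RPKM in hypoxia with the empty vector, and 16.8 to 17.0 against 29.9 to 30.9 RPKM with Flag-OC2, and the part of this in the ligand results was not tested.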

How the data were processed

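The 16 RNA-Seq libraries of PC3 and LNCaP cells were analysed, and the 12 ChIP-Seq samples were not used here. Per the labels and the study's methods, the authors made TruSeq Stranded mRNA libraries, used STAR 2.4.2a for alignment of the trimmed reads (build hg19), and derived the deposited gene RPKM from a GENCODE annotation in Cufflinks 2.1.1. Replicates were not pooled and RPKM were used as deposited. Groups came from the sample titles. For each line, log2(RPKM + 0.1) entered a linear model in limma 3.58.1 under R 4.3.3 (4 groups, mean-variance trend, no block). Contrasts were two-sided, with Benjamini-Hochberg adjustment over all genes tested. The fit was tested on simulated data with known changes.

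Depth was estimated from the RPKM of 1672 genes with a single transcript over 1000 bases, less 200 bases, at the step that 1 read makes. These estimates and the read numbers are approximate. Gene positions are GENCODE on GRCh37, and promoter windows RefSeq on GRCh38.p14. The ligands and gene lists were chosen with earlier results of these data known. Named were all 10 ligands, up to 4 called genes of each list by size of change, and 3 genes most like each of ANGPTL4, ADM and VEGFA. Alternatives were a pseudocount of 1, no filter, a filter at 5 RPKM, upper-quartile scaling (75%), only the compared groups, a replicate block, an siRNA term, adjusted p for calls, exact 0 as missing, and leaving out each library.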

Additional observations from a re-analysis of the deposited data

Results flagged for a closer look

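The hypoxia response of 4 ligands in PC3 cells differed between siCtrl and siOC2 by the interaction test, at a fold over 2 and an unadjusted limma p under 0.05. The difference in log2 fold change, siCtrl minus siOC2, was 3.14 for ANGPTL4 (unadjusted p of 0.000431), 1.79 for PDGFA (0.0186), 1.55 for PDGFB (0.00876) and 1.54 for ADM (0.0267). The limma adjusted p was 1 for each. ANGPTL4, ADM and PDGFB were higher in hypoxia with each siRNA against ONECUT2. For PDGFA these siRNAs went opposite ways (0.611 from 1.41 RPKM with siRNA1 and 1.21 from 0.903 RPKM with siRNA2).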

How the results depend on the processing

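The ligands' calls kept their direction and side in all comparisons under upper-quartile scaling and with exact 0 as missing, in the 8 comparisons of 2 groups fitted with only the compared groups, and in the siOC2 response and the PC3 difference with the siRNA term. With adjusted p under 0.05 for a call, the siCtrl response in PC3 cells kept 2 ligands, ANGPTL4 and ADM, and the siOC2 response, the difference and both siCtrl over siOC2 comparisons kept 0 higher and 0 lower, while LNCaP calls stayed. With no filter on low values, PGF made 1 call lower in the LNCaP difference (-1.43), 1 higher with Flag-OC2 in normoxia, and with PDGFA 2 higher in hypoxia, ADM joined VEGFA and VEGFB in both LNCaP hypoxia responses (3 each), and VEGFA lost its call for siCtrl over siOC2 in hypoxia. With a pseudocount of 1, the empty vector response kept 1. Leaving out each library gave log2 fold changes from -0.46 to 1.64 for VEGFA in the siOC2 response and from -0.017 to 1.15 for VEGFB in siCtrl over siOC2 in hypoxia. It gave 2 to 5 ligands for the PC3 difference, 0 to 1 higher and 1 to 3 lower for siCtrl over siOC2 in normoxia, 1 to 2 lower in hypoxia, 1 to 2 for the empty vector response and 0 to 1 for the LNCaP difference, and the cause was not tested. Over all genes the PC3 difference then ran from 33 to 1421 larger and 11 to 155 smaller (85 and 30 with all libraries, 265 and 115 with the siRNA term), and without replicate 2 of siOC2 in hypoxia the siOC2 response had 278 higher and 2525 lower (135 and 287 with all) and siCtrl over siOC2 in hypoxia 1891 higher (482 with all).

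Same-numbered libraries deviated together in the siOC2 groups, whose numbers name the siRNA (correlation of 0.618), and more weakly in the hypoxic LNCaP groups (0.275). The other 10 pairs of groups had correlations from -0.186 to 0.0759. With the replicate number as a block, VEGFC joined EDN1 among the ligands lower with siCtrl in normoxia, 2 in place of 1, and no other ligand's call changed. A crossed block, chosen after seeing the data and with the siCtrl normoxia numbers swapped, also gave 2. The depth limits what can be said of ligand values under 1 RPKM, at 0 to about 81 reads each.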

Other observations

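The genes whose levels followed a ligand most closely were ranked by the smaller of the Pearson correlations in PC3 and in LNCaP cells, each over 8 libraries of log2(RPKM + 0.1), among 10948 genes tested in both lines. For ADM these were CCNG2 (smaller r of 0.962), HILPDA (0.957) and MLLT3 (0.954). HILPDA is a lipid droplet protein induced by hypoxia. For ANGPTL4 they were AMPD3 (0.871), CCNG2 (0.868) and KLF4 (0.852), and for VEGFA SEPT7 (0.973), BHLHE41 (0.960) and TIA1 (0.944). ANGPTL4 and ADM themselves lay under the filter in LNCaP cells, so their LNCaP correlations rest on low values. For each of the ANGPTL4 genes the LNCaP correlation was the smaller one. The 8 points of each correlation share 4 groups, oxygen levels and library depth, so these are descriptions of a shared pattern.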
